A study of Mus musculus with 8 samples.

Results

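In retinoic acid (RA) treated mouse embryonic stem cells (mESC), 917 FGFR1 ChIP-seq peaks lay away from annotated promoters and were found in both FGFR1 libraries. They were chosen by their presence in both libraries: a peak of the first library qualified when it overlapped a peak of the second by 1 bp or more, had under 20 bp inside windows reaching 1000 bp either side of any GENCODE M21 transcript start, and held no run of 20 bp or more in which purines and pyrimidines alternate. They made up 1.99% of the 46137 peaks of the first library and 4.56% of its 20096 distal peaks without such a run, and they are called reproduced distal sites here. The 8 peak lists of the series hold 176687 peaks in all.

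The study mapped where a nuclear form of FGFR1 and its partner receptors sit on chromatin before and after neuronal induction. E14Tg2a mESC of passages 37 to 40 were either kept in Leukemia Inhibitory Factor (LIF), which maintains self-renewal, or grown without LIF in 1 µM RA for 48 hours, which starts neuronal differentiation. Antibodies to FGFR1, RXR and Nur77 were used in both states and an antibody to histone H3.3 in RA only, with 1 library per antibody and state except for FGFR1 in RA, which had 2, the second labelled as another experiment. Every library came from chromatin of pooled plates of 1 cell line, and no untagged or input control was used here.

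FGFR1 is a receptor tyrosine kinase of the cell surface that also occurs in the nucleus, although it has no known DNA-binding domain. RXR is the shared dimer partner of many nuclear receptors, including the receptors for RA, and Nur77 is an orphan nuclear receptor that binds an extended form of the same DNA motif. Distal regulatory sites in mammalian genomes include enhancers, CTCF-bound boundaries and CpG islands that lie away from any annotated gene start.

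The sequences below show the CTCF word at the reproduced distal sites. CTCF is the zinc finger protein that, with cohesin, anchors chromatin loops. The 8 members with the lowest summed rank of −log10 p over both libraries among those holding its consensus are shown, with the word in capitals, on the strand that carries it (mm10).
chr9:22328275-22328315, minus strand, 2191 bp from Gm6607: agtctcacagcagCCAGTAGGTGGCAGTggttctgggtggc
chr7:30216998-30217038, minus strand, 4281 bp from Gm44600: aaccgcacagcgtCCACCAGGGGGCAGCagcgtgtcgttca
chr15:82259693-82259733, minus strand, coding exon of 1500009C09Rik: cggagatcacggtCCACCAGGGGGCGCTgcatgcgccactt
chr7:110164964-110165004, plus strand, 13739 bp from 1600010M07Rik: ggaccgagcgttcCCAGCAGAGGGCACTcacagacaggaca
chr4:134478166-134478206, minus strand, 8455 bp from Stmn1: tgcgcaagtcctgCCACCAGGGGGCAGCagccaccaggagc
chr11:79224604-79224644, plus strand, 11818 bp from Gm11200: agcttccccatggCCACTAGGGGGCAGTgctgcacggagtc
chr8:119359022-119359062, plus strand, 13779 bp from Hsbp1: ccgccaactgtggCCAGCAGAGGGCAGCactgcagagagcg
chr19:5529499-5529539, plus strand, intron of Gm31166: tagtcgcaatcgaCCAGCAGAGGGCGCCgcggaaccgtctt

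A second word, chosen for display after the counts were seen, was the core of the NRF1 site. NRF1 is a transcription factor of housekeeping and mitochondrial genes that binds GC-rich palindromes. The 5 strongest members with this core are shown on the plus strand, with the core CGCATGCG in capitals.
chr16:4475273-4475312, 47771 bp from Srl: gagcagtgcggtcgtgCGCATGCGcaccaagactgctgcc
chr5:142367383-142367422, 34094 bp from Foxk1: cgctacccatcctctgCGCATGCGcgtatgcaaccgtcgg
chr9:20878400-20878439, nearest start Angptl6: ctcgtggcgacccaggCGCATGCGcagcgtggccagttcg
chr6:88106239-88106278, 1988 bp from Mir6376: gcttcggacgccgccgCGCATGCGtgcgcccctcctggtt
chr4:133813509-133813548, nearest start Gm12974: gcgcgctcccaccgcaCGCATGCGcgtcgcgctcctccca

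Whole summit windows, the summit and 50 bp to either side, are given for 5 members that later paragraphs describe, with each CpG in capitals, since the reproduced sites were richer in CpG than the other distal peaks. All are on the plus strand of mm10.
chr11:109011947-109012047, intergenic, the strongest member: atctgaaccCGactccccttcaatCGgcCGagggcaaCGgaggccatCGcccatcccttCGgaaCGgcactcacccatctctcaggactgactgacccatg
chr5:146260991-146261091, intron of Cdk8: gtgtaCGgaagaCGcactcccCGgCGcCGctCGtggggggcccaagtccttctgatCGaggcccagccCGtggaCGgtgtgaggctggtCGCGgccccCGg
chr16:63857035-63857135, intron of Epha3: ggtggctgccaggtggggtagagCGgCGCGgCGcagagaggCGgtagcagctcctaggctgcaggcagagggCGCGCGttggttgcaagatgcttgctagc
chr19:37690925-37691025, coding exon of Cyp26c1: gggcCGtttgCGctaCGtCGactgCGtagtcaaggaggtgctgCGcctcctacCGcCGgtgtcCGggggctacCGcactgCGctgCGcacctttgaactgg
chr12:86402866-86402966, intron of Esrrb: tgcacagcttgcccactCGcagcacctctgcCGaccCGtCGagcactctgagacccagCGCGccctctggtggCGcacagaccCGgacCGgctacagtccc

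The strength of the reproduced distal sites is a description, since presence in both lists chose them. Peak strength is given as the −log10 p of the peak caller. In the first library their −log10 p ran from 5.15 to 103.2 with a median of 12.7, against a median of 10.7 for the 19179 distal peaks found in the first library only. In the second library it ran from 5.78 to 280.1 with a median of 13.7. Of the 917 members, 36 were among the 1000 strongest of the 46137 peaks of the first library. In the second library 32 were among the 1000 strongest of 14082. The order of strength was poorly shared: across the 917 members, Spearman's rho between the libraries was 0.10 and Pearson's r, which weighs the few strongest sites more, was 0.418, both across sites that share the same libraries. The members were small peaks, with a median of 13 fragments at the summit in the first library and 19 in the second, so the presence or absence of any 1 of them in a list rests on few fragments.

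**Figure D1:**
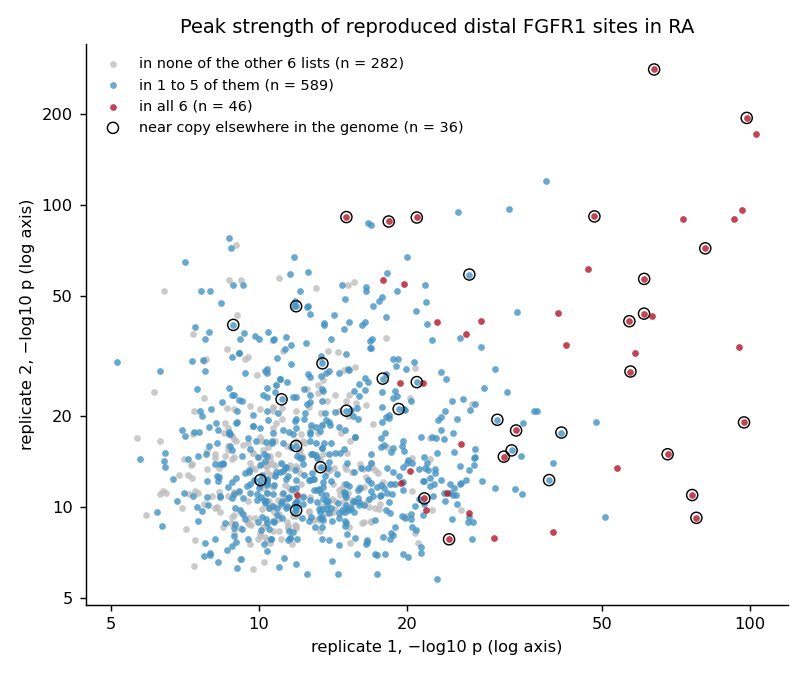
Each point is 1 of the 917 reproduced distal sites, with the −log10 p of its first library peak on the x axis and of its second library peak on the y axis, both on log axes. Sites in all 6 other lists (46, red) reached the highest values in both libraries, and 19 of them are circled as having a near copy elsewhere in the genome.

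The paired peaks sat close together. The median distance between the summits of the matched peaks was 48.0 bp, and in 723 pairs the summits were within 100 bp. The 917 members met 866 distinct peaks of the second library, so some neighbours shared a match. First library peaks were narrow (median 102 bp) and second library peaks wider (median 254 bp).

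The limits of the rule fell as follows. The longest alternating runs kept were of 19 bp, and the shortest removed was of 20 bp, at chr17:55482526-55482784. Inside the promoter limit, the site nearest Nanos1 had 16 bp in a promoter window. The nearest one outside it, chr5:30887605-30887713, had 20 bp. At the match limit, a site nearest Gm35339 shared 2 bp with its second library peak, and unmatched peaks nearest Fgfbp3 and Plet1 abutted a second library peak with a gap of 0 bp.

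Checked against a second annotation, the distal label held for most members and not for all. RefSeq placed a transcript start within 1000 bp of the summit of 11.0% of the members (95% interval 9.06 to 13.2), against 3.36% of the distal peaks of the first library only. Distal peaks of the second library only were at 9.58%, inside the interval of the members. The second library peak of 21 members reached 20 bp or more into a GENCODE promoter window. The member at chr11:79224576-79224663, which has the CTCF word, lies 71 bp from a RefSeq start although its nearest GENCODE start, of Gm11200, is 11818 bp away.

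The reproduced sites lay in introns less often than the other distal peaks. The summit of 181 members lay in an intron, 19.7% (exact 95% interval 17.2 to 22.5), where 44.9% of all 20096 distal peaks did. The members were instead intergenic in 481 cases (52.5%, interval 49.2 to 55.7, against 35.8% of the peaks of the first library only) and in coding exons in 192 cases (20.9%, interval 18.4 to 23.7, against 13.4%). Of the distal peaks of the second library only, 48.6% were intergenic and 13.4% lay in coding exons. Another 63 lay in untranslated or non-coding exons. Intervals here cover counting error only and treat sites as independent, which neighbouring peaks are not.

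**Figure D2:**
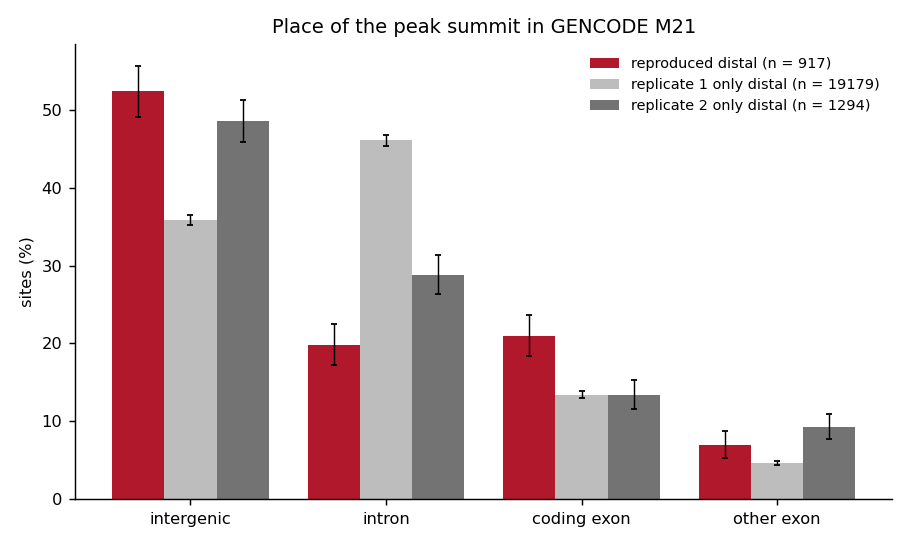
Bars give the percent of sites whose summit lies in each class of GENCODE M21 annotation, with exact 95% intervals, for the 917 reproduced distal sites and the distal peaks found in only 1 of the FGFR1 RA libraries. Introns hold 19.7% of the reproduced sites and 46.1% of the sites of the first library only, and the second library's own peaks lie between at 28.8%.

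The low intronic share was seen at most strengths. Among members with a −log10 p of 5 to 10 in the first library it was 16.7% (36 of 216), and among those of 30 or more it was 37.0% (17 of 46, interval 23.2 to 52.5). In the same strength classes the peaks of the first library only were at 45.8% and 49.6%, the latter inside the interval of the strongest members. The gap narrowed with CpG number: among sites with 9 or more CpGs, 15.7% of the members and 18.5% of the others were intronic.

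The reproduced sites lay nearer to transcript starts than the distal peaks of the first library only, but not than those of the second library only. The median distance from summit to the nearest GENCODE start was 7095 bp, against 10725 bp for the peaks of the first library only and 6910 bp for the 1294 distal peaks of the second library only. Of the members, 344 (37.5%) lay over 10000 bp away, against 51.6% of all distal peaks, and 41 (4.47%) over 50000 bp, against 9.39%. Distal peaks of the second library only were at 36.2% and 3.48% for these distances. The nearest start belonged to a protein-coding gene for 556 members, to a processed pseudogene for 94, and to a lincRNA or another non-coding type for the rest.

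The reproduced sites were rich in CpG. Their summit windows held a median of 7.0 CpGs, against 3.0 for the peaks of the first library only, 4.0 for those of the second library only and 11.0 for the 8505 reproduced promoter peaks. Median GC was 64.4%, 59.4%, 61.4% and 69.3% in the same order. Windows centred 400 bp to either side of the members held a median of 2.0 CpGs per window, so the CpG-rich stretch was local to the summit. Taking the summit and 100 bp to either side with over 50% GC and an observed to expected CpG ratio over 0.6 as CpG island-like, 465 members qualified (50.7%, interval 47.4 to 54.0), against 11.1% of the peaks of the first library only, 27.2% of those of the second library only and 91.7% of reproduced promoter peaks.

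The share of distal peaks that came back in the second library rose with CpG number. Of peaks with 0 to 2 CpGs in the window 99 of 8879 were found again (1.11%), of those with 3 to 5 CpGs 247 of 7358 (3.36%), of those with 6 to 8 CpGs 246 of 2542 (9.68%), and of those with 9 or more 325 of 1317 (24.7%, interval 22.4 to 27.1). Over 5 classes of first library −log10 p the island-like share of members lay between 45.4% and 60.9%, and that of the peaks of the first library only between 6.84% and 14.4%. GC-rich DNA is also captured unevenly in library preparation, and its part in these shares was not tested.

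**Figure D3:**
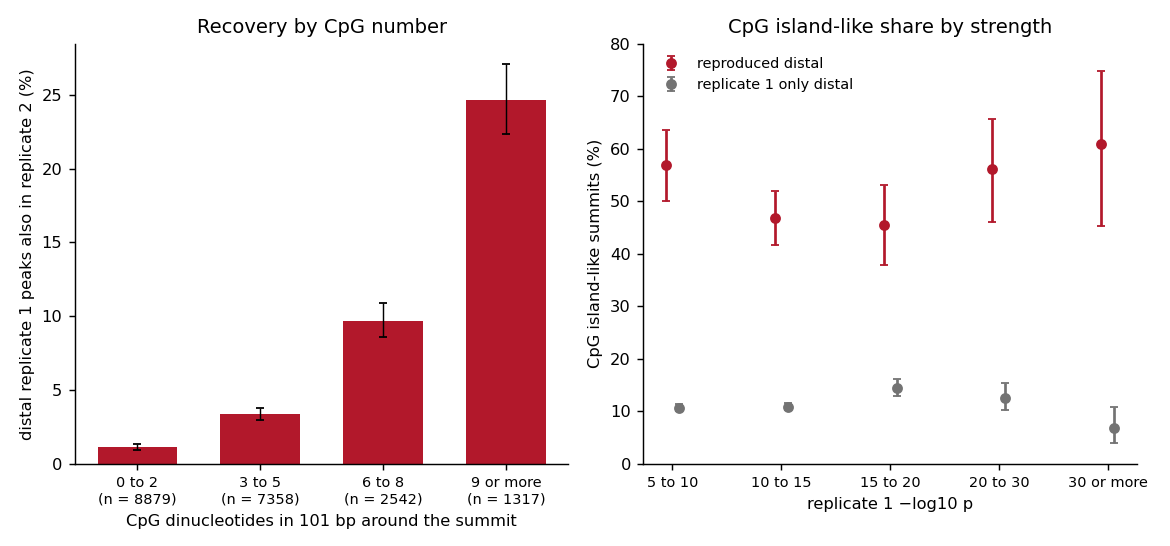
Left, percent of distal first library peaks also found in the second library, by the number of CpGs within 50 bp of the summit, rising from 1.11% to 24.7%. Right, percent of CpG island-like summits by first library −log10 p class, for reproduced distal sites (red) and distal sites of the first library only (grey). Bars and lines are exact 95% intervals.

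The CTCF word marked a small group. The consensus, searched on both strands, lay in the summit window of 27 members (2.94%, interval 1.95 to 4.26), beside 1.96% of all distal peaks and 1 of the flanking windows of the members (0.05%). Its centre was within 25 bp of the summit in 22 of the 27, and the median distance was 12 bp. Over all members the share was thus near the background of distal peaks and far above the flanks. At the matched second library summits of the same sites it was 1.85%. Among members and non-members of like strength no constant order was seen: at a −log10 p of 10 to 15 it was 2.94% against 1.73%, and at 20 to 30 it was 8.41% against 12.4%. Distal peaks of the second library only held it in 5 of 1294 cases (0.39%). By CpG number, windows with 3 to 5 CpGs held the word at 6.48% of members (interval 3.75 to 10.3) and 1.91% of the peaks of the first library only. With fewer or more CpGs, each interval of the members covered the share of those peaks.

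Of the 27 CTCF-word members a single one had an FGFR1 peak in LIF (3.70%, interval 0.09 to 18.97), against 193 of all 917 members (21.05%). That interval covers the 18.6% of the 881 members without a near copy (defined below), which the 27 all were. It also covers the 16.2% of the 452 members that were not CpG island-like. The shares of the 27 in the other 5 lists lay between 25.9% and 40.7%, each with an interval that covers the share of all members. None of the 27 was in all 6 other lists, a count whose interval reaches 12.8% and covers the share of all members (46 of 917). Of these 27 sites 5 were CpG island-like (18.5%). The strongest, at chr9:22328128-22328376, 2191 bp from the pseudogene Gm6607, had a −log10 p of 23.5 and 27.9 in the 2 FGFR1 RA libraries, none in FGFR1 LIF, and between 8.49 and 13.2 in the other 5 lists. The site in the coding exon of 1500009C09Rik (14.9 and 28.5) and the site nearest Gm11200 (22.4 and 14.5) were in none of the 6. With 1 mismatch allowed, 104 members held the word (11.3%) against 6.32% of the peaks of the first library only.

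The NRF1 core was the word in which members and other distal peaks differed most in ratio among those found in over 20 members. It was present at 30 members (3.27%, interval 2.22 to 4.64), against 0.31% of the peaks of the first library only, 0.54% of those of the second library only, 3.69% of reproduced promoter peaks and 0.11% of the flanking windows of the members. It lay within 25 bp of the summit at 27 of the 30. The core itself holds CpGs, in which the members were richer, and its share at like CpG number was not compared. No member held both the CTCF word and the NRF1 core. The strongest, 47771 bp from Srl, had a −log10 p of 33.6 and 44.3 and was in 5 other lists. The one upstream of Mir6376 (20.8 and 28.9) was in none.

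Of the words of other promoter factors, 3 were also more frequent at members than at the peaks of the first library only. The GC box (GGGCGGG, bound by Sp factors) lay at 98 members (10.7%, interval 8.76 to 12.9) against 2.45%, the ETS word (CCGGAAGT) at 11 (1.2%) against 0.09%, and the cAMP response element (TGACGTCA) at 9 (0.98%) against 0.26%. Distal peaks of the second library only held these words at 9.89%, 0.77% and 0.70%, each inside the interval of the members. The E-box CACGTG lay at 53 (5.78%, interval 4.36 to 7.49) against 5.09%, and in 1.36% of the flanks. The YY1 word lay at 4 (0.44%) against 0.47%, so neither word stood apart from the peaks of the first library only. Distal peaks of the second library only held the E-box at 2.40% (interval 1.63 to 3.38), below the interval of the members, and the YY1 word at 0.39%. The AP-1 word TGANTCA, at 28 members (3.05%), was as frequent as in their flanks (2.78%). The GC box, ETS word, cAMP response element and E-box each hold a CpG, and the YY1 and AP-1 words hold none. Since members were richer in CpG and shares at like CpG number were not compared, base composition may enter these differences.

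The words of the nuclear receptors were not more frequent at the reproduced sites. The motif AGGTCA, which RXR heterodimers bind as repeats, lay in 36 summit windows (3.93%, interval 2.76 to 5.39), against 6.98% of the flanks and 7.37% of the peaks of the first library only. The Nur77 word AAAGGTCA, which contains that motif, lay in none of the 917 windows, a count that allows a share of up to 0.327% by 3 counts of the total and 0.401% by the exact interval. It lay in 0.17% of the peaks of the first library only, which that interval covers, and in 0.60% of the flanks of the members, which it does not. These counts say only that the letters were or were not in the window. The REST site was found at 3 members (0.33%), beside 0.13% of all distal peaks.

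**Figure D4:**
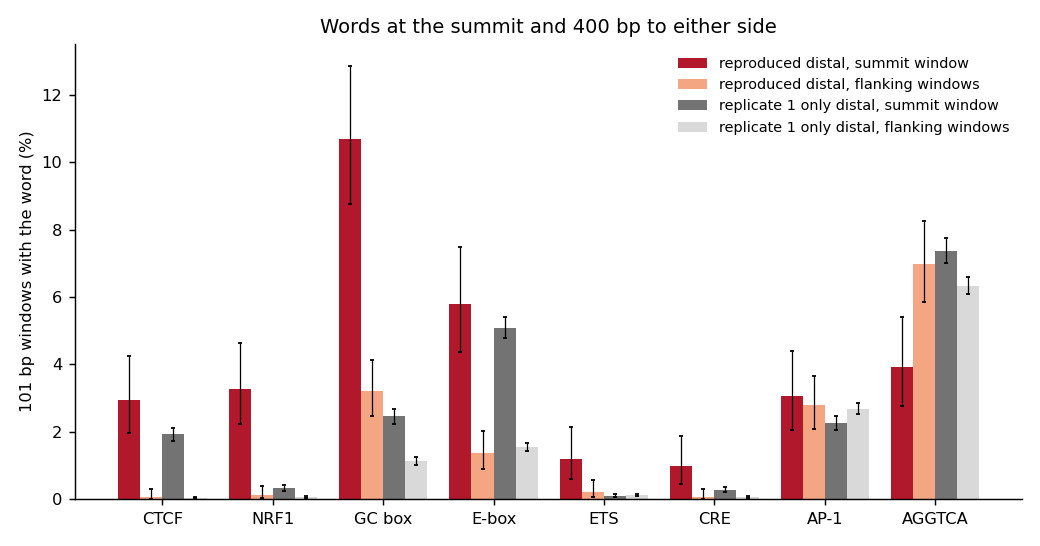
Percent of windows of the summit size that hold each word, at the summit and 400 bp to either side, for reproduced distal sites (reds) and distal sites of the first library only (greys), with exact 95% intervals. The CTCF word and the NRF1 core are present at 2.94% and 3.27% of reproduced summits and at 0.05% and 0.11% of their flanks, while the receptor motif AGGTCA is lower at the summits (3.93%) than in the flanks (6.98%).

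Most reproduced distal sites had a peak in some other list. At least 1 of the 6 other lists held a peak at 635 members (69.2%, interval 66.1 to 72.2), against 32.6% of the peaks of the first library only and 22.6% of those of the second library only. FGFR1 in LIF shared 193 (21.05%, interval 18.4 to 23.8) where 4.97% of all distal peaks had one. RXR in LIF, the longest list, shared 433 (47.2%, interval 44.0 to 50.5) beside 15.9%, and Nur77 in LIF 267 (29.1%, interval 26.2 to 32.2) beside 12.5%. In RA, RXR shared 230 (25.1%, interval 22.3 to 28.02) beside 8.99%, Nur77 253 (27.6%, interval 24.7 to 30.6) beside 17.0%, and H3.3 175 (19.1%, interval 16.6 to 21.8) beside 7.37%.

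**Figure D5:**
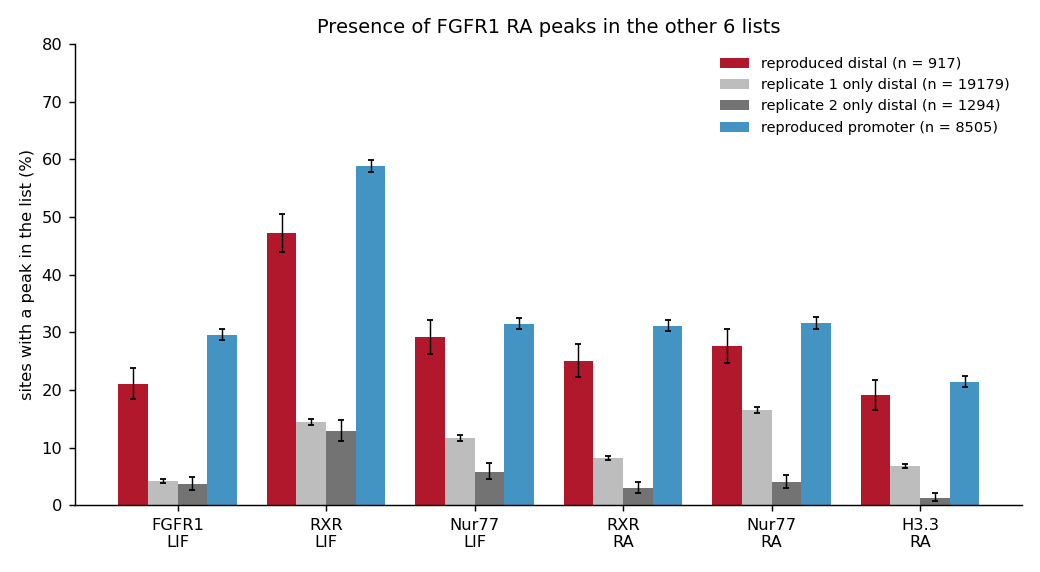
Percent of sites with a peak in each of the 6 other lists, with exact 95% intervals, for reproduced distal sites, distal sites found in only 1 FGFR1 RA library, and reproduced promoter peaks. In each list the reproduced distal sites stand above both kinds of unreproduced site and below the promoter peaks (47.2% and 58.9% for RXR in LIF). For Nur77 in LIF and H3.3 the promoter shares, 31.5% and 21.5%, lie inside the intervals of the reproduced distal sites.

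The order of these shares depended on list length. When each list was cut to the length of the shortest, keeping its strongest peaks, a setting added after the data were seen, RXR in LIF fell from 47.2% to 18.2%, and the 6 shares lay between 13.1% and 20.2%. In the same setting the peaks of the first library only lay between 3.90% and 7.16%. The difference from unreproduced peaks was also present within strength classes, but it was not clear for each list in each class. At a −log10 p of 10 to 15, RXR in LIF shared 40.4% of 374 members and 12.4% of 9179 others, and FGFR1 in LIF 13.6% and 2.84%. For Nur77 in RA the gap was smaller, 19.3% and 13.9%. At 15 to 20, Nur77 in RA shared 29.3% of members (interval 22.7 to 36.7) and 26.8% of the others. At 30 or more, RXR in RA shared 76.1% (interval 61.2 to 87.4) and 73.1%.

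By combination, 128 members had both an RXR and a Nur77 peak in RA (13.96%, beside 5.16% of all distal peaks), and 102 had RXR without Nur77 (11.1%, beside 3.84%). Nur77 without RXR was found at 125 (13.6%), near the 11.9% of all distal peaks, and 562 had neither (61.3%, beside 79.1%). Peaks in at least 1 LIF list and at least 1 of the RXR, Nur77 and H3.3 lists of RA were present at 316 members (34.5%, beside 12.1% of all distal peaks), and in LIF lists only at 238 (26.0%, beside 11.5%). Peaks in those RA lists only were present at 81 (8.83%, interval 7.08 to 10.9), close to the 10.7% of all distal peaks. Of the 193 members with an FGFR1 peak in LIF, 134 (69.4%) also had an RXR peak in LIF, and these were 30.9% of the 433 members with such a peak. Since each state has 1 library per antibody outside FGFR1 in RA, these are presence counts and no change between LIF and RA was tested.

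The number of other lists moved with several values. The 282 members in none had a median −log10 p of 11.1 and 13.2 in the 2 FGFR1 RA libraries, a median of 5.0 CpGs, and no near copy elsewhere in the genome. The 46 members in all 6 had medians of 40.1 and 34.1, and 19 of them (41.3%) had a near copy, here another place sharing an exact run of 28 bases and at least 90% identity over 80% of the window. Of all 917 members 36 had one (3.93%, interval 2.76 to 5.39, beside 5.85% of all distal peaks), and 20 of these 36 lay in introns. The authors' alignment kept reads that mapped to 1 place, and the part of such copies in these peaks was not tested. Without those 36, the shares in the 6 lists lay between 17.4% and 45.3%.

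The strongest reproduced distal sites were present everywhere. Of the 10 with the lowest summed rank, 9 were in all 6 other lists and 5 had a near copy as defined above. The first, chr11:109011644-109012057, lies between genes 4346 bp from the pseudogene Gm11668. Its −log10 p was 103.2 and 171.5 in the FGFR1 RA libraries, 152.4 in FGFR1 LIF, 115.2 and 73.3 in RXR LIF and RA, 93.4 and 72.9 in Nur77 LIF and RA, and 47.4 in H3.3. These high values were found with all 4 antibodies and in both states. The letters of its window, printed above, resemble part of the 28S ribosomal RNA, a likeness known from background and not aligned here.

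The member at chr6:3201476-3201581 (96.3 and 96.0) lies in a stretch of 901 bp with 98.2% identity to the ribosomal RNA locus on chromosome 17 (chr17:39846681-39847581), where GENCODE annotates an rRNA gene. It had peaks in all 8 lists, the lowest at 16.9 in H3.3. This member was not counted as having a near copy, so the near-copy counts given here can miss copies. No 28S or whole ribosomal repeat sequence was used here, so the other windows were not aligned with one, and how far ribosomal repeats account for the strongest sites was not tested. A pair of neighbouring members in the intron of Cdk8, a kinase of the Mediator complex, matched a single second library peak (−log10 p 89.5). Their own values were 92.8 and 73.0, and both were in all 6 other lists. The Cdk8 window printed above also resembles 28S ribosomal RNA, again from background only.

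A member at chr9:35305212-35305522, in an intron of the lincRNA Gm33838, had the highest second library value (280.1, with 63.8 in the first). Its window was 100% soft-masked repeat with a near copy on chromosome 2. The single member of the top 10 that was not in all lists lay in the coding exon of the linker histone gene Hist1h1d, one of a family of closely related genes, and 152 bp from a RefSeq start. Its −log10 p was 38.4 and 119.6, and 31.7 in FGFR1 LIF, with no peak in the other 5 lists, so it was seen with the FGFR1 antibody alone.

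The strongest members seen in the FGFR1 RA libraries alone were weaker. They lay in introns of Epha3 (27.1 and 22.0), an ephrin receptor of developing neurons, and Gtf2a1 (15.6 and 55.6), a subunit of the general factor TFIIA, upstream of Mir6376 (20.8 and 28.9), and nearest the pseudogenes Gm15707 (18.1 and 36.2) and Rps2-ps7 (20.4 and 23.0). None of these 5 had a near copy.

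Several genes hosted or neighboured 3 or more members. Sfi1, a centrosome gene, was the nearest coding start for 5 members, each in 5 or 6 other lists and 2 with near copies. Gm21738 had 4, all with near copies, and 3 members with near copies lay in introns of Mid1 on the X chromosome. Rps6ka1, a kinase downstream of ERK, had 4 with no near copy, Chd2, Katnal1 and Wnt2b 3 each. Gm20388, a long annotated gene, hosted 5 in 0 or 1 other lists. The zinc finger genes Zfp239 and Zfp672 were each the nearest coding start of 3, and 3 in the coding exon of Zfp697 were nearest the start of Gm4450. A further 3, on a single second library peak (52.04), lay in exons of the overlapping genes Lrrc14 and Lrrc24. The X chromosome held 18 members among 83 distal peaks (21.7%, where all chromosomes gave 4.56%), and 5 of the 18 had a near copy.

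Few genes of retinoid metabolism, pluripotency and FGF signalling had a member. A gene counted when a member lay in it or its start was the nearest coding start, which 904 of 21924 protein-coding genes met (4.12%). The counts of 1 or 2 genes below are too small to set a list apart from that share. Of 18 retinoid genes (5.56%) only Cyp26c1, a RA-degrading enzyme, had one. This site, in its coding exon 5394 bp from the start and 6823 bp from the start of Cyp26a1, another RA-degrading enzyme, had a −log10 p of 16.7 and 26.0, with 10.1 in Nur77 RA and 12.3 in H3.3, and no peak in the 3 LIF lists or RXR RA. It was present in RA lists only.

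Of 23 pluripotency genes Esrrb and Klf4 had a member. The Esrrb site, in an intron, had 39.6 and 14.04, with 19.1 in RXR RA, 17.8 in Nur77 RA and 13.96 in H3.3, again without a LIF peak, and its window holds the CTCF word with 1 mismatch. The Klf4 site lay 51134 bp from that gene and had 20.8 and 10.1, with RXR and Nur77 peaks in RA (17.9 and 16.2). Esrrb and Klf4 are transcription factors of the self-renewal network. Neither these 2 sites nor the Cyp26c1 site had a peak in a LIF list, where 60.4% of the members and 23.6% of all distal peaks had one. So few sites cannot be set apart from those shares. Among the sites at listed genes described below, those of Pds5a, Hoxb1, Hoxb9, Mest and Fgfr2 had a LIF peak. So did the site nearest Oat, both Ndn sites and a Hoxc4 site. The sites of Dusp6, Hoxb2 and Hoxa2 with Hoxa3, and another Hoxc4 site, had none.

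Of 18 FGF pathway genes Dusp6, the ERK phosphatase that dampens FGF signalling, had a site 1221 bp upstream (12.2 and 17.5) in no other list, and Fgfr2 had one in an intron 7105 bp from the nearest start (15.8 and 7.0), with RXR LIF at 7.29 and H3.3 at 6.41. Another site, nearest the start of Oat (10.3 and 14.3), lies inside a long annotated Fgfr2 transcript. Of 39 Hox genes 6 had a member (15.4%): Hoxa2, Hoxa3, Hoxb1, Hoxb2, Hoxb9 and Hoxc4, which pattern the body axis. Hoxa2 and Hoxa3 were counted through the same site and Hoxc4 through 2. The Hoxb2 coding exon site was among the weakest members (7.96 and 6.95), with 8.53 in RXR RA, and the Hoxb9 site, 36336 bp upstream, had 23.0 and 5.78.

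Of 25 imprinted genes Ndn had 2 sites on 1 second library peak (27.7), and Mest was the nearest start, 62809 bp away, of a site in an intron of Copg2 that was in all 8 lists (24.1 and 11.1). Pds5a, a cohesin regulator, was the single gene of 12 for CTCF and cohesin (14.9 and 15.5). None of 30 neural lineage genes and none of 15 clustered protocadherin genes had a member, counts near what the 4.12% of all coding genes gives on lists this short. Some distal FGFR1 peak of the first library was found for 23 and 10 of them, and for 9308 of the 21924 coding genes.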

How the data were processed

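The deposited files were 8 peak lists, 1 per library, made by the authors with Bowtie 1.0 on mm10, keeping reads with 1 alignment, and MACS2 at p of 1e-05. No control library is named. Each list gives, as deposited by the authors, a score, a fold enrichment (a ratio), −log10 p, −log10 q and a summit position. Replicates were not pooled. The reads were not used. Fragments at each summit were solved from fold and p: background ran from 1.27 (H3.3 RA) to 7.09 (RXR LIF) fragments per kb, with 4.16 and 6.78 in the FGFR1 RA libraries, so absence from a sparse list says less.

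Peaks were compared by overlap of 1 bp or more and placed on GENCODE M21 by summit (coding exon, other exon, intron, intergenic, in that order). Words were counted on both strands in the summit and 50 bp to either side, with flanks centred 400 bp away, in GRCm38. Near copies came from blastn 2.17.0. Shares have exact Clopper-Pearson intervals at 95% that cover counting error only. The code (Python 3.11.15, pandas 2.3.3, scipy 1.17.1, matplotlib 3.10.9) was tested on simulated data.

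Members and gene lists were chosen with earlier results of these data known. Named sites were the 10 lowest summed ranks, the first 5 in all lists, 8 with the CTCF word, 5 in no other list, those at listed genes, and those next to each limit. Genes with 3 or more members were named too. NRF1-core sites were named after their values were seen. Alternatives changed thresholds, overlap, promoter width, tracts, repeats, copies and annotation.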

Additional observations from a re-analysis of the deposited data

How the results depend on the processing

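Of 125 alternative values, settings that leave out a library aside, 107 stayed within 1.5 times the reported count or inside the reported 95% interval, and 18 moved further. Leaving out chromosome M or asking for −log10 q of at least 2 removed none of the 917 sites, so those values stayed as reported. Cutting H3.3, the shortest list, to its own length also changed nothing. With −log10 p of at least 10 in both FGFR1 RA lists, 552 sites remained and the shares in the other lists rose to 25.5% (FGFR1 LIF), 53.6% (RXR LIF), 33.7% (Nur77 LIF), 31.5% (RXR RA), 31.3% (Nur77 RA) and 24.6% (H3.3 RA). Promoter windows of 5000 bp left 573 sites, and windows of 500 bp gave 22.5% in introns. RXR LIF was 43.3% when peaks had to share 50% of the shorter one, and RXR LIF and RXR RA were 41.5% and 21.4% with summits within 100 bp. With lists of equal length, added after seeing the data, RXR LIF was 18.2%, Nur77 LIF 15.9%, RXR RA 17.4% and Nur77 RA 13.1%. The CTCF word was at 1.85% of the matched second library summits and, with 1 mismatch, at 11.3% of the members. The cause of these shifts was not tested.

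Using all distal peaks of 1 FGFR1 RA library gave 2134 to 20096 sites, with 4.97% to 10.6% in FGFR1 LIF, 15.9% to 27.5% in RXR LIF, 12.5% to 15.5% in Nur77 LIF, 8.99% to 12.5% in RXR RA, 13.7% to 17.0% in Nur77 RA, 7.37% to 8.43% in H3.3 RA, 25.3% to 44.9% in introns and 0.98% to 1.96% with the CTCF word. With RefSeq starts added, also after seeing the data, 812 sites remained. Most sites rest on few fragments, so absence from a list is weak evidence. No paired analysis was possible because no groups share more than 1 replicate number.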
